A study of Mus musculus with 16 samples.

Results

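The effect of a high fat diet under metformin was described in 8 of the 16 RNA sequencing libraries of whole inguinal mammary gland, the 4 libraries labelled HFD with metformin and the 4 labelled NCD with metformin. Members were chosen by these diet and treatment labels and by no measured value. All 8 libraries share metformin, a glucose-lowering drug, the age label of postnatal day 16 and, by the title, mid-lactation, and HFD is by the title a high fat diet given in lactation. The labels do not expand NCD, and they name no mouse strain, no dose of metformin and no make-up of either diet. The same diets without metformin, 4 HFD control and 4 NCD control libraries, were used for side-by-side values and shared the model fit. The labels do not say that libraries of a group came from separate mice, so that the spread behind each p-value is that between libraries and may be technical. Libraries are called NCD metformin 1 to 4 and HFD metformin 1 to 4 in accession order, which pairs nothing. Of 22196 genes with summed counts, 12506 passed the filter on low counts and were tested.

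Diet acts on the lactating gland by several routes that are well described. Sterol regulatory element binding proteins (SREBPs) switch on the enzymes of cholesterol and fatty acid synthesis when sterols are scarce, and the gland uses both pathways to make milk fat. Peroxisome proliferator-activated receptors (PPARs) are activated by fatty acids and switch on genes that burn or store them. The transcription factor p53 answers stress by switching on genes of growth arrest and cell death, and FOXO factors, which insulin keeps out of the nucleus, switch on genes of nutrient shortage. The aryl hydrocarbon receptor binds plant and foreign compounds, many of which enter with food, and its best known target is Cyp1a1. In whole-gland RNA, fewer cells of a type and less RNA per cell cannot be told apart.

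Totals over genes ran from 14508606 counts in HFD metformin 1 to 39156617 in NCD metformin 4, so that 3 counts, the floor used here, were worth 0.0766 to 0.207 CPM (counts scaled to the same library total). Milk protein transcripts took 71.1 to 71.6% of the counts in NCD metformin and 72.7 to 77.0% in HFD metformin, as is usual for a lactating gland, and the groups did not overlap (exact permutation p = 0.0286, two-sided, the smallest that 4 against 4 allows; 0.103 after Benjamini-Hochberg adjustment over 18 measures). Levels are CPM after TMM scaling, which offsets such a shift in composition, and are not divided by gene length, so levels of different genes are not compared. The summed level of skeletal muscle markers was 161 CPM in HFD metformin 1 and 35.0 CPM in NCD metformin 2, against 3.94 to 6.25 CPM in the other 6 libraries.

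On HFD, the detoxification gene Cyp1a1, the secreted protein gene Prol1 and 10 genes of cholesterol synthesis were lower than on NCD, while the fatty acid burning genes Ucp3 and Cpt1a, the lipase inhibitor gene Angptl4 and the p53 targets Eda2r, Cdkn1a and Trp53inp1 were higher. By the quasi-likelihood test of edgeR, with p-values adjusted after Benjamini and Hochberg and a threshold of 0.05, 295 of the 12506 genes were called (2.36%), 232 of them higher (1.86%) and 63 lower (0.504%). A further look at unadjusted p found 2407 genes under 0.05, where 625 would be found with no effect. The median log2 fold change (HFD metformin minus NCD metformin, as throughout) was 0.81 for the genes called higher, -0.74 for those called lower and -0.00 for all genes tested, of which 49.5% were positive. Changes past 1 on the log2 scale were found for 75 genes called higher and 17 called lower. The groups did not overlap for 275 of the 295. The call itself selects genes whose groups lie apart, so this count adds no support to the calls. The same holds where single called genes are described below as without overlap. The share of all tested genes without overlap is not given here.

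**Figure D1:**
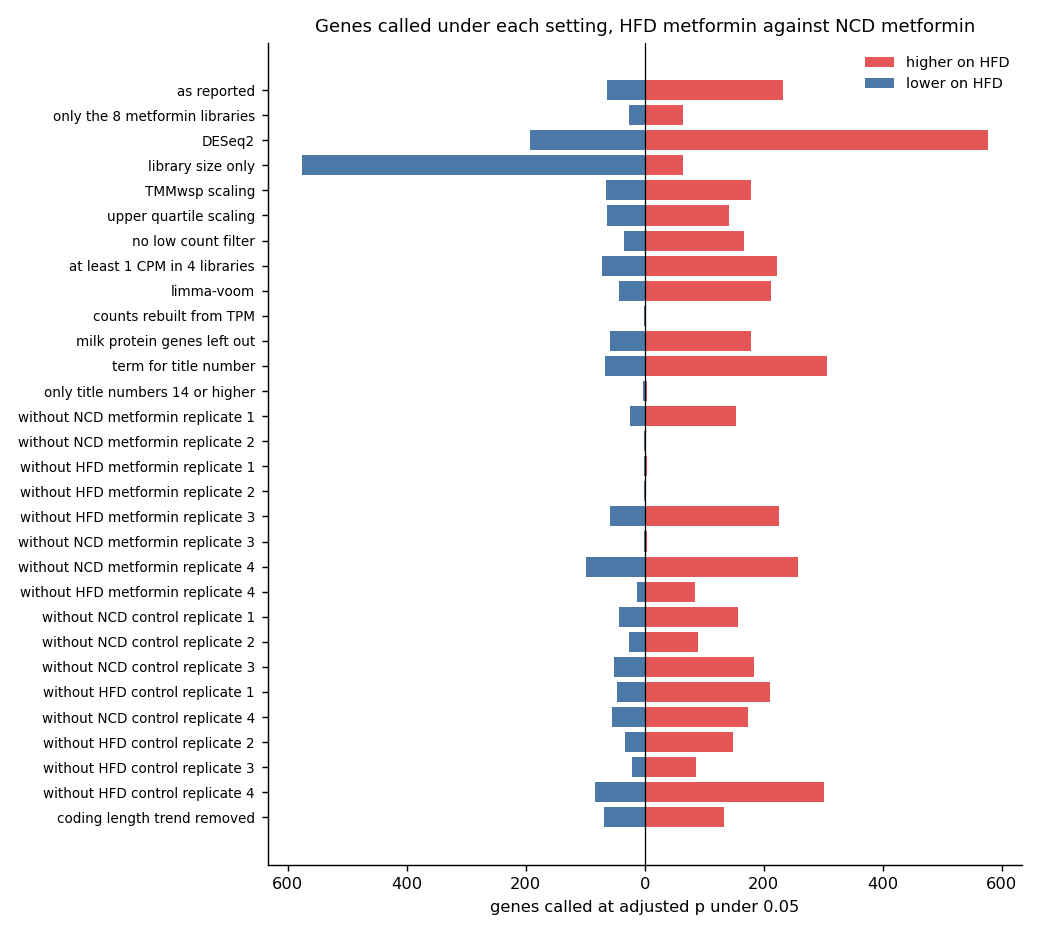
Bars give the number of genes called higher (right) and lower (left) on HFD under metformin in each setting, on an axis of genes called at an adjusted p under 0.05. The reported setting calls 232 and 63. Settings without HFD metformin 1, HFD metformin 2, NCD metformin 2 or NCD metformin 3 call 3 to 5 genes in all, DESeq2 calls 769, and scaling by library size only turns most calls to lower.

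Most calls lay close to the threshold. Adjusted p was under 0.01 for 5 genes, under 0.03 for 9 and at or above 0.03 for the other 286. Without NCD metformin 2 there were 4 calls, among them Cyp1a1, Eda2r and Grb7, without NCD metformin 3 there were 5 (the 4 and Cdkn1a), without HFD metformin 1 there were 5 (the 4 and Zfp7), and without HFD metformin 2 there were 3 (Cyp1a1, Eda2r and Grb7). The count was also more than 1.5 times lower without NCD metformin 1 (177), HFD metformin 4 (97), NCD control 2 (116), HFD control 2 (181) and HFD control 3 (107). All 295 genes kept their sign without any single library, and their medians stayed between 0.73 and 0.87 for those called higher and between -0.79 and -0.71 for those called lower. With DESeq2, 769 genes were called, 286 of the 295 among them, with the 8 metformin libraries fitted alone 91, and in counts rebuilt from the deposited TPM 2 (Cyp1a1 and Eda2r). Scaled by library size only, the median of all genes moved to -0.18, and 65 genes were called higher and 576 lower, so the excess of higher over lower calls is relative to TMM scaling. HFD metformin 1 was the highest of the HFD metformin libraries for 137 of the 232 genes called higher, against 28, 19 and 48 for the other 3. Genes called higher were also long, with a median coding length of 1967 bases against 1236 over all genes tested and 1423 for genes called lower. Of 5 bins of coding length, the longest held 102 genes called higher and 12 lower, and the shortest 11 and 6. With a trend on coding length taken out of each library, an alternative chosen after seeing the data, 201 genes were called, 133 higher and 68 lower. What part muscle RNA, depth or gene length has in single calls was not tested.

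Cyp1a1, whose cytochrome P450 enzyme breaks down foreign compounds, had the lowest log2 fold change. Its levels were 3.81, 2.81, 3.09 and 1.97 CPM in NCD metformin 1 to 4 and 0.308, 0.0965, 0 and 0.0727 CPM in HFD metformin 1 to 4. Every HFD library was far below every NCD library, and HFD metformin 3 had no count. Summed over libraries this was 9 counts on HFD and 356 on NCD, a ratio of 3.04% after division by the totals (95% exact interval 1.38 to 5.84%, which covers counting error only). The test gave log2 fold change -4.82 ± 0.56 (SE), adjusted p = 0.0022 (edgeR), and the call held in all 29 alternatives. The gene lies on chromosome 9 from 57687928 to 57703824, + strand (GRCm38, GENCODE M21). Its receptor gene Ahr, which is needed for the induction of Cyp1a1, was called in the other direction, at 1.07, 0.836, 0.773 and 1.17 CPM in NCD metformin 1 to 4 and 2.15, 2.09, 1.39 and 1.74 CPM in HFD metformin 1 to 4, without overlap (log2 fold change 0.92 ± 0.20 (SE), adjusted p = 0.0349). The call of Ahr ended in 8 of 28 alternatives, scaling by library size only (adjusted p = 0.0545, edgeR) and the 8 metformin libraries alone among them. Of the 11 genes listed for this receptor 6 were tested, and the other 4, among them Tiparp (1.31, adjusted p = 0.156), which is also a target, did not pass (edgeR). The 250 bases before the Cyp1a1 start in RefSeq, shown because this receptor acts through the letters GCGTG (searched on both strands, as GCGTG or CACGC), hold these letters 1 time, in capitals, with the first at position -54 from the start (GRCm38.p6, chr9:57697363-57697612, + strand). They are found in 28.2% of 32851 such windows and in 44.0% of the 12405 windows of tested genes, and a match is not a binding site. The window shown lies inside the GENCODE gene span given above, so the RefSeq start is not the first base of that span.
Cyp1a1: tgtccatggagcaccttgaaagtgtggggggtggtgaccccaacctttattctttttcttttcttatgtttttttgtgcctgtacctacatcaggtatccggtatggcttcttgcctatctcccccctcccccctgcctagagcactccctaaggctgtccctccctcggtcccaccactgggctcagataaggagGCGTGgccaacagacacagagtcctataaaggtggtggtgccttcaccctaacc

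Prol1, which encodes a proline-rich secreted protein, was at 28.7, 3.24, 17.4 and 5.47 CPM in NCD metformin 1 to 4 and 3.85, 0.804, 0.984 and 0.7996 CPM in HFD metformin 1 to 4. NCD metformin 1 and 3 were far above the rest, and HFD metformin 1 lay above NCD metformin 2, so the groups overlapped (log2 fold change -3.26 ± 0.71 (SE), adjusted p = 0.0362). Its counts summed to 119 on HFD and 1579 on NCD, a ratio of 9.07% (7.46 to 10.9%). Among the 12 called genes with the lowest values were also Rasl11b, a small GTPase gene (-2.60, groups apart), and the complement gene C3, whose levels of 42.6, 105, 158 and 76.1 CPM in NCD metformin 1 to 4 and 33.7, 45.5, 16.6 and 19.4 CPM in HFD metformin 1 to 4 overlapped (log2 fold change -1.72 ± 0.42 (SE), adjusted p = 0.0448). Further genes of the 12 were Prag1 (-1.50), Gsdma, a gasdermin gene (-1.48), Clca3a2, a chloride channel accessory gene (-1.45, groups overlapping), the zinc importer gene Slc39a4 (-1.40), Gsta4, a glutathione transferase gene for lipid peroxidation products (-1.14), the villin-like gene Vill (-1.13) and the sterol gene Nsdhl. Clca3a2 and Gsta4 belong to families of like sequence that can share reads, so their values are uncertain.

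**Figure D2:**
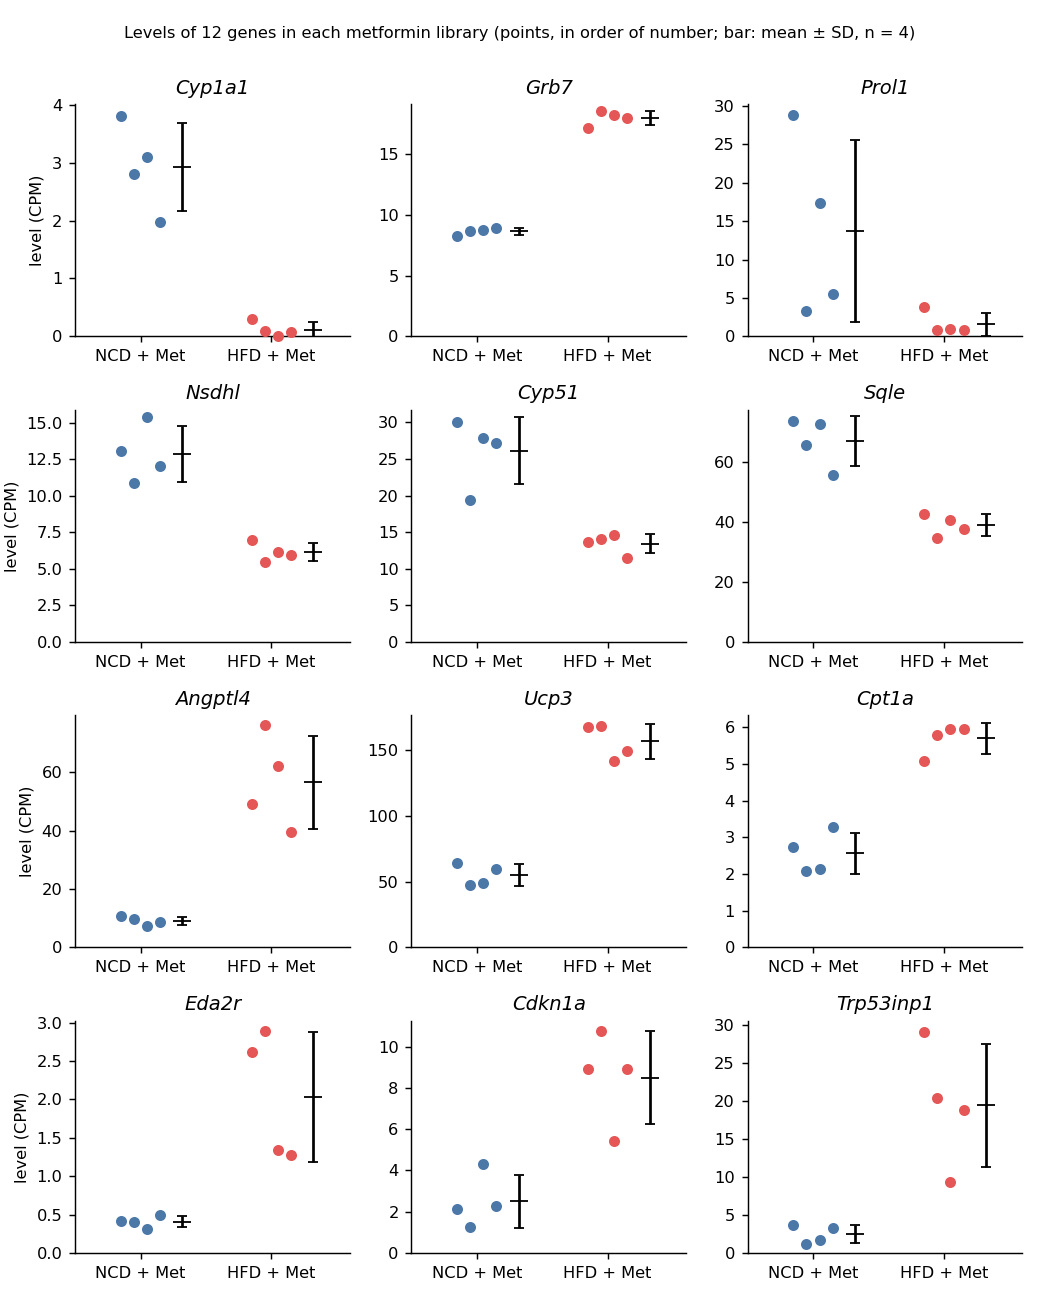
Each panel gives the level of 1 gene in CPM (linear axis from 0) in the 4 NCD metformin libraries (blue) and the 4 HFD metformin libraries (red), with the mean and SD of each group (n = 4) beside the points. Both groups stand apart in every panel but that of Prol1, where HFD metformin 1 (3.85 CPM) lies above NCD metformin 2 (3.24 CPM).

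Of 25 genes listed for cholesterol synthesis, 24 were tested, 10 were called lower and 0 higher, and 22 had a negative value, with a median of -0.72 against -0.00 over all genes tested, of which 0.504% were called lower. Among the enzymes that turn mevalonate into farnesyl diphosphate were Pmvk at -0.81 ± 0.20, Idi1 at -0.82 ± 0.20 and Fdps at -0.73 ± 0.16 (log2 fold change ± SE). Sqle, the epoxidase that makes squalene into the precursor of the sterol rings, was at 73.7, 65.6, 72.7 and 55.5 CPM in NCD metformin 1 to 4 and 42.7, 34.6, 40.8 and 37.7 CPM in HFD metformin 1 to 4. No HFD level came near the lowest NCD level (log2 fold change -0.78 ± 0.14 (SE), adjusted p = 0.0305). Lss, which closes the rings to give lanosterol, was at 14.98, 12.97, 18.8 and 9.62 CPM in NCD metformin 1 to 4 and 7.38, 6.34, 5.77 and 7.81 CPM in HFD metformin 1 to 4 (log2 fold change -1.04 ± 0.21 (SE), adjusted p = 0.0322). Cyp51, the demethylase of lanosterol, was at 30, 19.5, 27.9 and 27.2 CPM in NCD metformin 1 to 4 and 13.7, 14.02, 14.6 and 11.5 CPM in HFD metformin 1 to 4 (log2 fold change -0.96 ± 0.18 (SE), adjusted p = 0.0322). For Lss and Cyp51 every HFD level lay under every NCD level. In the later steps Msmo1 (-0.93 ± 0.21), Tm7sf2 (-0.51 ± 0.12) and Nsdhl were called. Nsdhl, a dehydrogenase that removes a methyl carbon, was at 13.1, 10.9, 15.4 and 12.03 CPM in NCD metformin 1 to 4 and 6.999, 5.499, 6.17 and 5.92 CPM in HFD metformin 1 to 4, again without overlap (log2 fold change -1.07 ± 0.20 (SE), adjusted p = 0.0322). Members that did not pass included Dhcr7 (-1.0003, adjusted p = 0.0505), Hmgcs1 (-0.43, 0.254), Mvk (-0.72, 0.0554) and Srebf2, the factor that controls the pathway (-0.40, 0.132). Positive values were those of Hsd17b7 (0.40) and Stard4 (0.16), neither called (edgeR).

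**Figure D3:**
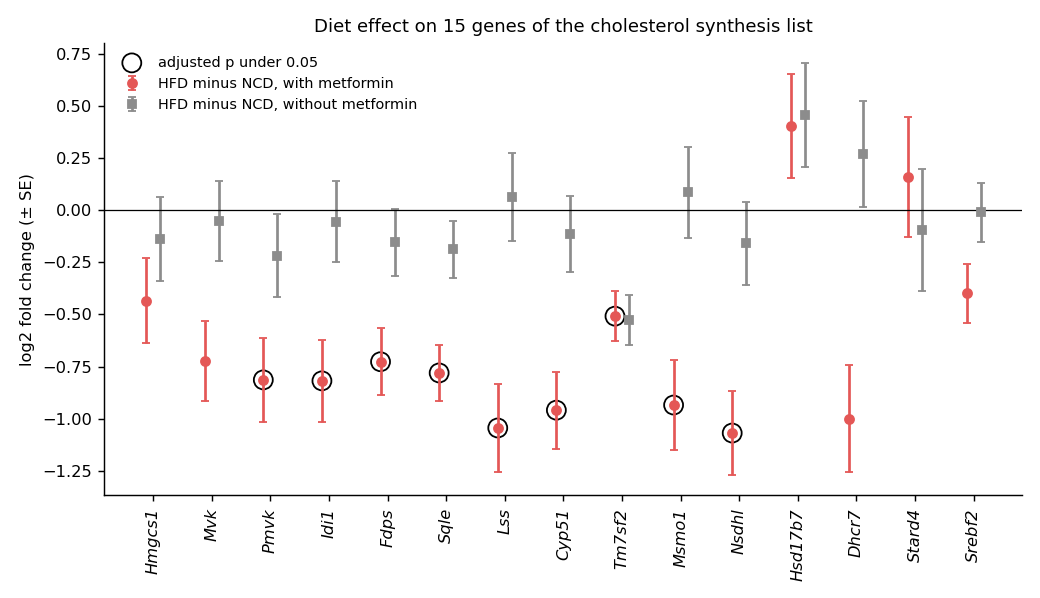
Log2 fold changes (vertical axis) with their SE for 15 of the 24 tested genes of the cholesterol synthesis list, those named in the text, in the order of the pathway from left to right and then control genes, with metformin (red) and without it (grey). Circled genes passed with metformin. All circled genes lie at or below -0.51, while the whole list has a median of -0.09 without metformin.

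Without single libraries the median of the list stayed between -0.78 and -0.67. The number of its members called was 0 without HFD metformin 1, HFD metformin 2, NCD metformin 2 or NCD metformin 3, and 4 without NCD metformin 1, HFD metformin 4 or HFD control 3. DESeq2 called 15 (769 of all 12506 genes), and counts rebuilt from TPM gave 0 (median -0.76). Among the 5 metformin libraries with title numbers of 14 or higher the median was -0.69, with only Nsdhl called. The same list without metformin had a median of -0.09, with 0 members called, where 0.064% of all genes were called. Interaction values for the 10, the diet effect with metformin minus that without, ran from -1.11 to 0.02 on the log2 scale, and none passed after adjustment (edgeR, lowest unadjusted p = 0.00173 for Lss). The 10 were chosen by their call under metformin, which favours low interaction p.

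The upstream windows of 4 called sterol genes are shown because SREBPs act together with NF-Y, a factor that binds CCAAT. Letters in capitals are CCAAT or, for a match on the other strand, ATTGG, in the 250 bases before the start (RefSeq, GRCm38.p6, given 5′ to 3′ in the direction of the gene). Windows are chrX:72918271-72918520 (+ strand) for Nsdhl, chr10:76531355-76531604 (+ strand) for Lss, chr5:4104698-4104947 (- strand) for Cyp51 and chr8:64733579-64733828 (- strand) for Msmo1.
Nsdhl: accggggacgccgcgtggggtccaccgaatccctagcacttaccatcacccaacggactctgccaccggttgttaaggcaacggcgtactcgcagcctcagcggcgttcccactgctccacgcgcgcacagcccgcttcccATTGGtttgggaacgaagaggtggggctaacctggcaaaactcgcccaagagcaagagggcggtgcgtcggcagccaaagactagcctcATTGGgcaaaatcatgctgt
Lss: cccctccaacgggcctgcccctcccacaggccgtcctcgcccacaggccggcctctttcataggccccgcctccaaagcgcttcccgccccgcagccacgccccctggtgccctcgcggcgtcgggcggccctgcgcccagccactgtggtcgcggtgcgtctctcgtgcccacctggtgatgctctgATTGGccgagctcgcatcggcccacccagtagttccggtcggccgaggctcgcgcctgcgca
Cyp51: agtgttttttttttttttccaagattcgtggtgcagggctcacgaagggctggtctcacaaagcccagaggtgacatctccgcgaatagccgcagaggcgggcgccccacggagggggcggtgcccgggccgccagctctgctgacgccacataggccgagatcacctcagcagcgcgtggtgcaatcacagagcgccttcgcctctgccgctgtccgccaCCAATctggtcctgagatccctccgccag
Msmo1: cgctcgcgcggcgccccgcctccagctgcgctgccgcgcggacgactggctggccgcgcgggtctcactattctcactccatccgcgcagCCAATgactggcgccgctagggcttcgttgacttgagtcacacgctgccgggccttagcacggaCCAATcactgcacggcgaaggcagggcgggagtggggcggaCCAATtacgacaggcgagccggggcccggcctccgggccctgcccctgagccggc

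Nsdhl holds 2 matches, with first bases at -109 and -20 from the start, Lss 1 at -62, Cyp51 1 at -29 and Msmo1 3 at -160, -96 and -55. Of the 10 called sterol genes 7 had an entry, and 7 of these 7 held CCAAT in either direction, against 33.8% of all 32851 windows of this length and 34.8% of the 12405 windows of tested genes. The letters CACCCCAC (or GTGGGGTG), a form of the sterol element through which SREBPs act, were in 0 of the 7, against 2.58% of all windows and 2.68% of those of tested genes, which says only that these letters are not in these windows. Of 5 called genes of de novo fatty acid synthesis with an entry, 4 held CCAAT and 1 held CACCCCAC. Sterol genes that were not called were not compared. A match is not a binding site, and a part of SREBPs or NF-Y in the calls was not tested.

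Genes of de novo fatty acid synthesis, which in the gland makes the medium-chain fatty acids of milk, were in part called lower. Of 24 tested, 5 were called lower (0.504% of all genes were) and 0 higher, with a median of -0.36 and 21 negative values. Slc25a1, which exports the citrate that feeds the pathway, was at 114, 154, 126 and 96.9 CPM in NCD metformin 1 to 4 and 66.2, 57.8, 81.3 and 72.2 CPM in HFD metformin 1 to 4. All HFD levels were below all NCD levels (log2 fold change -0.82 ± 0.16 (SE), adjusted p = 0.0322, edgeR). Acss2, which makes acetyl-CoA from acetate, was at 66.3, 74.3, 77.3 and 86.3 CPM in NCD metformin 1 to 4 and 52.5, 49.3, 52.8 and 47.2 CPM in HFD metformin 1 to 4, also apart (log2 fold change -0.59 ± 0.12 (SE), adjusted p = 0.0322). The other 3 were Me1 (-0.45) and Pgd (-0.55), which both supply NADPH, and Mid1ip1, a partner of acetyl-CoA carboxylase (-0.75). The enzymes at the centre of the pathway did not pass. Fasn had -0.42 (adjusted p = 0.299), Acaca -0.05 (0.934), Acly -0.35 (0.199) and the desaturase gene Scd1 -0.79 (0.0637), although no Scd1 level on HFD, at 201 to 309 CPM, reached the NCD range of 395 to 511 CPM. Fasn levels overlapped, 3670.3 to 7821 CPM on NCD and 3464 to 5000.5 CPM on HFD. With HFD metformin 1, HFD metformin 2, NCD metformin 2 or NCD metformin 3 left out 0 members were called, with HFD metformin 4 left out 2, and with NCD metformin 1, NCD control 2 or HFD control 3 left out 3, and the median lay between -0.42 and -0.25 over all fits without 1 library. Without metformin the median was 0.08. Of 23 tested genes of fatty acid import and triglyceride synthesis 0 were called by edgeR (median -0.10, 9 at an unadjusted p under 0.05, 3 called by DESeq2), including the lipase gene Lpl (0.12, adjusted p = 0.698) and Gpam (0.66, 0.105). Among all 12506 genes 2407 had an unadjusted p under 0.05, and DESeq2 called 769.

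Of 30 tested genes of fatty acid oxidation and PPAR targets, 4 were called higher (1.86% of all genes were) and 0 lower, with 25 positive values and a median of 0.32. Scaled by library size only, 3 were called, 16 were positive and the median was 0.16. In counts rebuilt from TPM 0 of 28 were called (median 0.20), and DESeq2 called 9 (769 of all 12506 genes). Angptl4, a PPAR target whose product inhibits lipoprotein lipase, was at 10.6, 9.69, 7.38 and 8.77 CPM in NCD metformin 1 to 4 and 48.99, 75.96, 61.97 and 39.4 CPM in HFD metformin 1 to 4. The lowest HFD level was more than 3 times the highest on NCD (fold 6.21; log2 fold change 2.63 ± 0.61 (SE), adjusted p = 0.0388, edgeR). Ucp3, a mitochondrial carrier of fatty acid burning tissues, was at 64.1, 47, 49.2 and 59.5 CPM in NCD metformin 1 to 4 and 168, 168, 141 and 149 CPM in HFD metformin 1 to 4, with both groups narrow and apart (log2 fold change 1.51 ± 0.28 (SE), adjusted p = 0.0322). Cpt1a, which admits long-chain fatty acids to mitochondria, was at 2.74, 2.07, 2.14 and 3.28 CPM in NCD metformin 1 to 4 and 5.08, 5.79, 5.95 and 5.96 CPM in HFD metformin 1 to 4 (log2 fold change 1.15 ± 0.24 (SE), adjusted p = 0.0322). Slc25a20, the carrier of the resulting acylcarnitines, was at 3.32, 3.88, 3.197 and 3.19 CPM in NCD metformin 1 to 4 and 5.77, 6.37, 6.13 and 5.45 CPM in HFD metformin 1 to 4 (log2 fold change 0.81 ± 0.17 (SE), adjusted p = 0.0341). Neither gene overlapped. Of the tested ketone body genes, Bdh1, a dehydrogenase of ketone bodies, was 1 of 7 called, and lower (-0.51 ± 0.11), where 0.504% of all genes were called lower. The lipase gene Pnpla2 (0.69, 0.166), Lpin1 (1.08, 0.0935) and the fatty acid transporter gene Slc27a1 (0.85, 0.0775) did not pass. No member of the oxidation list was called without HFD metformin 1 (median 0.25), HFD metformin 2 (0.31), NCD metformin 2 (0.35) or NCD metformin 3 (0.29), and 2 were called without NCD metformin 1 or HFD metformin 4. Angptl4 and Ucp3 were among the 6 genes called in libraries of title number 14 or higher. In the control libraries the list's median was -0.10, with Ucp3 at -0.00 and Angptl4 at 0.17.

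Of 23 tested p53 targets 5 were called higher (1.86% of all genes were) and 0 lower, 22 were positive and the median was 0.51. Scaled by library size only, 3 were called, 16 were positive and the median was 0.33. In libraries of title number 14 or higher 0 were called (median 0.35), in counts rebuilt from TPM 1 was, and DESeq2 called 9 (769 of all 12506 genes). Eda2r, a death-domain receptor gene of the tumour necrosis factor family, was at 0.419, 0.401, 0.316 and 0.493 CPM in NCD metformin 1 to 4 and 2.62, 2.89, 1.34 and 1.27 CPM in HFD metformin 1 to 4. Each HFD library had more than every NCD library, HFD metformin 1 and 2 the most, from 189 counts in all on HFD and 53 on NCD, a ratio of 429% (95% exact interval 315 to 593%, counting error only). The test gave log2 fold change 2.28 ± 0.29 (SE), adjusted p = 0.00406 (edgeR), and the call ended in 1 of 29 alternatives, with title numbers of 14 or higher alone. The gene lies on chromosome X from 97333840 to 97377216, - strand (GRCm38). Cdkn1a, the p21 inhibitor of the cell cycle, was at 2.13, 1.27, 4.32 and 2.299 CPM in NCD metformin 1 to 4 and 8.92, 10.8, 5.41 and 8.905 CPM in HFD metformin 1 to 4, apart (log2 fold change 1.77 ± 0.35 (SE), adjusted p = 0.0322). Trp53inp1, a p53-induced gene of autophagy and cell death, was at 3.698, 1.24, 1.65 and 3.31 CPM in NCD metformin 1 to 4 and 29.2, 20.5, 9.31 and 18.8 CPM in HFD metformin 1 to 4, with HFD metformin 1 the highest and HFD metformin 3 still above all NCD levels (log2 fold change 2.96 ± 0.54 (SE), adjusted p = 0.0322). Ccng1, a cyclin gene, rose by 0.51 ± 0.12 and the death receptor gene Fas by 0.63 ± 0.14 (log2, SE). Gdf15, a stress hormone gene that metformin is known to raise, had 2.39 (adjusted p = 0.0636) and Btg2 1.05 (0.132), not called. Members called numbered 1 without HFD metformin 1, HFD metformin 2 or NCD metformin 2, 2 without NCD metformin 3, and 3 without NCD metformin 1, NCD control 2 or HFD control 3, with list medians of 0.42 to 0.57. The median without metformin was -0.04.

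**Figure D4:**
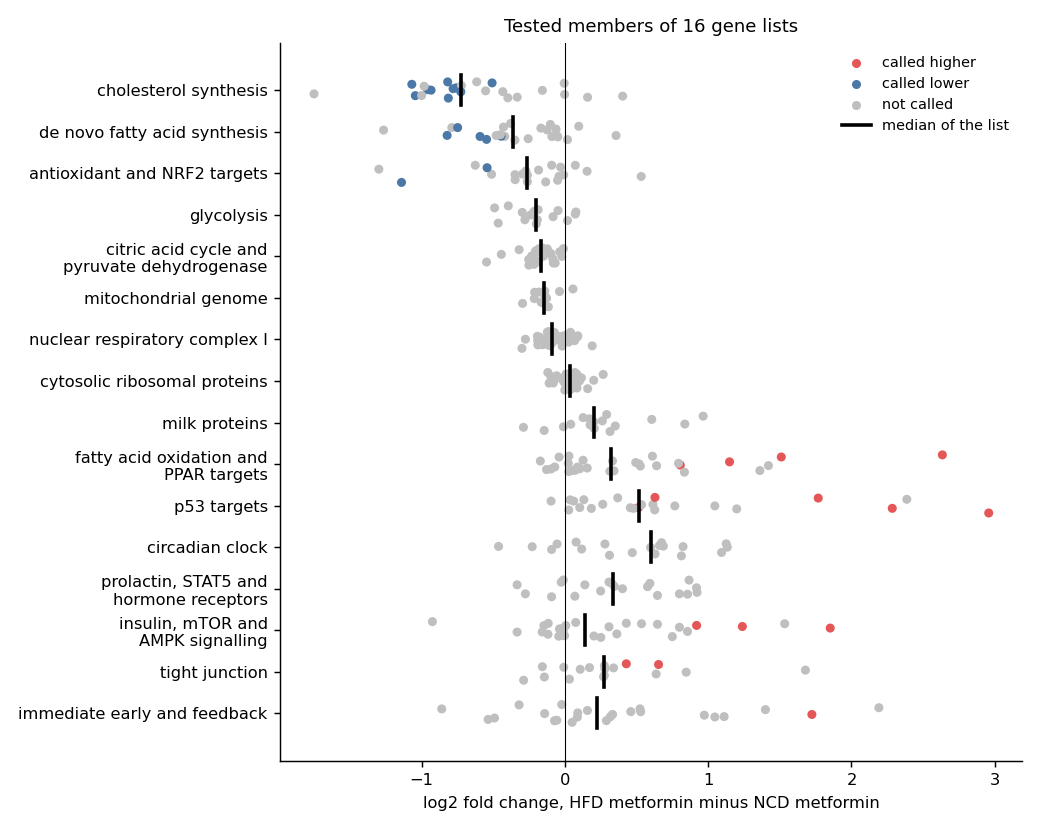
Each point is a tested gene of 1 of 16 lists, placed by its log2 fold change (HFD metformin minus NCD metformin), red if called higher, blue if called lower and grey if not called, and black bars are list medians. The cholesterol list has the lowest median (-0.72) of those drawn and the circadian list the highest (0.60), the latter with 0 genes called.

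Genes of insulin, mTOR and AMPK signalling had a median of 0.14 over 28 tested, with 3 called higher (1.86% of all genes were) and 0 lower. Under scaling by library size the median was -0.04. Foxo3, a factor that insulin restrains, was at 12.2, 8.29, 7.13 and 8.98 CPM in NCD metformin 1 to 4 and 31, 20.8, 14.6 and 20.2 CPM in HFD metformin 1 to 4, with HFD metformin 1 highest and no overlap (log2 fold change 1.24 ± 0.23 (SE), adjusted p = 0.0322, edgeR). Rictor, the subunit that defines mTOR complex 2, had 1.85 ± 0.45 and Pik3r1, the regulatory subunit of PI3-kinase, 0.92 ± 0.23. Flcn (0.48, adjusted p = 0.106) and Pdpk1 (1.53, 0.0775) did not pass. Of these 28 genes 0 were called without HFD metformin 1, HFD metformin 2, NCD metformin 2 or NCD metformin 3, and 1 without HFD metformin 4, HFD control 1, 2 or 3, NCD control 2 or 4, or NCD metformin 4. Other called genes of nutrient response, named after their values were seen, were the sestrin gene Sesn3 (0.82), the deacetylase gene Sirt1 (0.89), Fnip1, which encodes a partner of folliculin and AMPK (1.46), and the autophagy genes Ulk1 (0.71), Atg14 (0.53) and Rb1cc1 (0.51). Like genes that were not called were not counted, so nothing is shown of a group. In this order the calls ended in 11, 7, 10, 8, 8 and 9 of 29 alternatives. Scaling by library size only was among these for Sesn3, Ulk1, Atg14 and Rb1cc1. Atg14 was at 3.96, 4.45, 5.02 and 5.02 CPM in NCD metformin 1 to 4 and 6.69, 6.79, 6.71 and 6.51 CPM in HFD metformin 1 to 4, and the narrow groups did not meet (log2 fold change 0.53 ± 0.10 (SE), adjusted p = 0.0322). Grb7, which encodes an adaptor of growth factor receptors, was at 8.23, 8.66, 8.75 and 8.91 CPM in NCD metformin 1 to 4 and 17.2, 18.5, 18.2 and 17.99 CPM in HFD metformin 1 to 4. Every HFD level was well above every NCD level (fold 2.08), and the 4 libraries of each group lay close together (log2 fold change 1.06 ± 0.15 (SE), adjusted p = 0.00721), and the call ended in 2 of 29 alternatives. The gene lies on chromosome 11 from 98446394 to 98455373, + strand (GRCm38). Of receptor genes, Erbb3, a partner of ERBB2 in growth signalling (49.4, 40.2, 58.7 and 56.7 CPM in NCD metformin 1 to 4 and 120.1, 94.4, 85.3 and 89.1 CPM in HFD metformin 1 to 4), and Lifr, the receptor for leukaemia inhibitory factor (10.2, 13.3, 11.1 and 13.7 CPM in NCD metformin 1 to 4 and 28.5, 22.2, 18.97 and 21.7 CPM in HFD metformin 1 to 4), were higher without overlap (0.92 and 0.91, adjusted p = 0.0322 and 0.0212).

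The largest log2 fold changes among called genes at 1 CPM or more were those of Adgrf3, an adhesion receptor gene (3.96 ± 0.87), and Tmcc3 (3.04 ± 0.67), a gene of the endoplasmic reticulum membrane. Tmcc3 levels were 8.77, 6.22, 3.34 and 9.71 CPM in NCD metformin 1 to 4 and 148, 25.9, 13.7 and 45.3 CPM in HFD metformin 1 to 4, so that HFD metformin 1 had more than 3 times the next library, while all 4 lay above NCD (adjusted p = 0.0368, edgeR). Nrip1, a co-repressor of nuclear receptors, was at 7.51, 2.27, 2.49 and 5.63 CPM in NCD metformin 1 to 4 and 41.9, 19.4, 14.05 and 24.2 CPM in HFD metformin 1 to 4 (log2 fold change 2.46 ± 0.44 (SE), adjusted p = 0.0305), again highest in HFD metformin 1 and without overlap. Cpeb4, which controls translation through the poly(A) tail, had 1.99 and Dnase1l2, a nuclease gene, 1.82. Among fast-responding genes, Sik1, a kinase gene induced by cAMP, was at 32.1, 20.8, 50.6 and 26.8 CPM in NCD metformin 1 to 4 and 247, 123, 35.4 and 108 CPM in HFD metformin 1 to 4. HFD metformin 1 stood far above the next library and HFD metformin 3 lay within the NCD range (log2 fold change 1.98 ± 0.46 (SE), adjusted p = 0.0388). Dusp1, the phosphatase that ends MAP kinase signals, was at 18.9, 21.5, 50.4 and 30.7 CPM in NCD metformin 1 to 4 and 153, 92.7, 47.3 and 109 CPM in HFD metformin 1 to 4, with the same overlap (log2 fold change 1.72 ± 0.37 (SE), adjusted p = 0.036). Nr4a2, a nuclear receptor gene, was at 0.534, 0.368, 0.949 and 0.633 CPM in NCD metformin 1 to 4 and 9.69, 5.34, 0.9396 and 2.62 CPM in HFD metformin 1 to 4, and HFD metformin 3 again fell among NCD levels (log2 fold change 2.86 ± 0.72 (SE), adjusted p = 0.0483). Dusp1 was the 1 gene called of 24 tested (2.36% of all genes were) on the immediate early and feedback list, whose median of 0.22 became -0.03 without NCD metformin 1 and 0.75 without NCD metformin 3. Fosl2 (2.19, adjusted p = 0.0883) and Klf6 (1.11, 0.115) did not pass. Without HFD metformin 1 neither Tmcc3, Nrip1, Sik1, Dusp1 nor Nr4a2 was called, and their values were 2.01, 2.10, 1.45, 1.45 and 2.27.

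Milk protein genes were not called. Their 16 tested members had a median of 0.20, with Csn2, beta-casein, at 0.29 (adjusted p = 0.0996), Wap, whey acidic protein, at 0.31 (0.171), and Lalba, alpha-lactalbumin, at -0.14 (0.622). Csn2 was at 128781 to 151012 CPM on NCD and 149306 to 200908 CPM on HFD, ranges that overlap. Glycam1 had the lowest adjusted p of the list, 0.0516, with a value of 0.84. The other secretory lists held no called gene either. There were 0 called of 15 for the milk fat globule (median 0.05, and -0.11 scaled by library size), where Xdh had 0.05, 0 of 13 for lactose synthesis and glucose uptake (-0.16), and 0 of 20 for prolactin, STAT5 and hormone receptors (0.34), where Jak2 had 0.58 (0.0792) and Stat5b 0.59 (0.113). At an unadjusted p under 0.05 edgeR had 7 milk protein genes, 7 of the milk fat globule, 1 of lactose synthesis and 7 of the prolactin list, and at the adjusted threshold DESeq2 called 2, 1, 1 and 2 and limma-voom 0. Of genes of salt and amino acid transport, Scnn1b, which encodes a part of the epithelial sodium channel, was at 14.9, 12.7, 17.04 and 16.1 CPM in NCD metformin 1 to 4 and 23.2, 20.3, 22.3 and 19.4 CPM in HFD metformin 1 to 4 and apart (log2 fold change 0.49 ± 0.11 (SE), adjusted p = 0.0382, edgeR). Slc43a2, an exporter of large neutral amino acids, had 1.17 ± 0.28, the 1 call among 19 amino acid transporters, as Scnn1b was among 18 genes of ion transport. Scaled by library size only, neither Slc43a2 (adjusted p = 0.0559) nor Scnn1b (0.0902) was called (edgeR). Over all 12506 genes edgeR called 2.36%, 2407 had an unadjusted p under 0.05 and DESeq2 called 769.

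Transcripts of the mitochondrial genome were a smaller share of the counts on HFD, 2.57 to 3.01% against 3.24 to 3.67% on NCD, without overlap (exact permutation p = 0.0286, two-sided, the smallest possible; 0.103 adjusted over 18 measures). After TMM scaling 0 of their 13 genes were called (median -0.15, 12 negative, lowest adjusted p = 0.175, edgeR). These genes have nuclear copies that can share reads. The 24 genes of the citric acid cycle were all negative and none was called (median -0.17, lowest adjusted p = 0.121), among them Dlst (-0.25, 0.121) and Idh3a (-0.55, 0.188). Glycolysis had 0 of 15 called (-0.20), respiratory complex I 0 of 36 (-0.09), complexes III to V 0 of 34 (-0.06), branched-chain amino acid breakdown 0 of 18 (-0.10) and cytosolic ribosomal proteins 0 of 45 (0.04, and -0.14 scaled by library size). In these 7 sets edgeR called 0 genes, where 2.36% of all genes were called. With a share this low, 0 calls in a list of 13 to 45 genes says little about the list. At an unadjusted p under 0.05 there were 3 mitochondrial genome genes, 4 of the citric acid cycle, 3 of glycolysis, 0 of complex I, 2 of complexes III to V, 0 of amino acid breakdown and 1 ribosomal gene. DESeq2 called 1 glycolytic gene and 0 in the other 6, and limma-voom 0 in all 7. Over all 12506 genes 2407 had an unadjusted p under 0.05, and DESeq2 called 769.

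Few genes of the stress lists were called, where 2.36% of all genes were, 1.86% higher and 0.504% lower. Of 21 tested antioxidant and NRF2 targets, Gsta4 (-1.14 ± 0.23) and the thioredoxin reductase gene Txnrd1 (-0.54 ± 0.12) were called lower, 0 were called higher, and the median was -0.26 with 18 negative. Gsta4 was at 2.02, 2.17, 2.53 and 2.46 CPM in NCD metformin 1 to 4 and 0.9999, 0.868, 1.21 and 1.09 CPM in HFD metformin 1 to 4 with no overlap, and neither it nor Txnrd1 was called without HFD metformin 1, HFD metformin 2, HFD metformin 4, NCD metformin 2 or NCD metformin 3. Nfe2l2, the gene of NRF2 itself, had 0.53 (adjusted p = 0.0726). Of 30 tested genes of the integrated stress response Cebpg, a bZIP factor gene (0.51), was called higher and Wars, the tryptophan tRNA synthetase gene (-0.59), lower, calls that ended in 26 and 19 of 29 alternatives. Of 22 genes of folding in the endoplasmic reticulum, Xbp1, a factor of the unfolded protein response (-0.47), was called lower and Derl3, which helps to remove misfolded proteins (0.97), higher, calls that ended in 21 and 23 of 29 alternatives, with Hyou1 at -0.69 (0.15). Of 20 cytosolic heat shock genes 0 were called by edgeR or DESeq2 (median -0.06, 4 at an unadjusted p under 0.05). In all 12506 genes DESeq2 called 769, and 2407 had an unadjusted p under 0.05. The polyamine oxidase gene Paox, named after its values were seen, was at 10.5, 12.6, 11.8 and 11.7 CPM in NCD metformin 1 to 4 and 6.61, 7.49, 7.16 and 7.09 CPM in HFD metformin 1 to 4, and the 4 close HFD levels were all lower (log2 fold change -0.71 ± 0.12 (SE), adjusted p = 0.0212). Glul, glutamine synthetase, was higher (0.79 ± 0.15), as was Mgea5, which removes O-GlcNAc from proteins (0.75 ± 0.13).

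Clock and cell cycle genes had the highest medians of the pathway lists without a call by edgeR. At an unadjusted p under 0.05 there were 7 clock and 17 cell cycle genes, and DESeq2 called 1 of each. Over all 12506 genes these counts were 2407 and 769, and edgeR called 2.36%. The 19 clock genes had a median of 0.60 with 15 positive, and the lowest adjusted p was 0.1004 (Nr1d2, 1.13, edgeR). Without HFD metformin 1 the median was 0.27. Per1 was at 87.9, 77.6, 89.9 and 62.8 CPM in NCD metformin 1 to 4 and 185, 120.2, 80.04 and 118 CPM in HFD metformin 1 to 4, which overlap. The 29 cell cycle genes had a median of 0.99, and their summed level was 209 CPM in HFD metformin 4 against 69.95 to 102 CPM in the other 7 libraries. Without HFD metformin 4 the median was 0.09. Mki67 was at 23.9, 27.5, 14.7 and 22 CPM in NCD metformin 1 to 4 and 24.6, 24.7, 44.9 and 90.97 CPM in HFD metformin 1 to 4, with HFD metformin 3 and 4 above the rest. Outside the list, the condensin genes Smc4 (0.81, 8.35, 9.19, 6.92 and 9.74 CPM in NCD metformin 1 to 4 and 12.1, 13.2, 12.3 and 22.1 CPM in HFD metformin 1 to 4) and Ncaph (0.83) were called higher, and HFD metformin 4 was the highest library for both. Neither Smc4 (adjusted p = 0.0657) nor Ncaph (0.0676) was called when scaled by library size only (edgeR).

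Markers of cell types were mostly not called. For this and the other lists of this paragraph, 2.36% of all genes were called, 1.86% higher and 0.504% lower. An unadjusted p under 0.05 was found for 2407 of all 12506 genes, and DESeq2 called 769. Luminal epithelial markers summed to 458 to 500 CPM on NCD and 547 to 640 CPM on HFD (exact permutation p = 0.0286, two-sided, 0.103 adjusted over 18 measures), with 1 of 14 called, Cldn3, a claudin of the tight junction (0.65 ± 0.15). Krt18 had 0.47 (adjusted p = 0.0901) and Epcam 0.46 (0.0792). Of the 14 luminal markers 9 were positive and 5 negative, with a median of 0.18, and of 0.008 scaled by library size only. The junction molecule gene F11r was also called (0.43), and the 17 tight junction genes had a median of 0.27, with 13 positive. Scaled by library size only, that median was 0.10 with 10 positive, and neither Cldn3 (adjusted p = 0.0781) nor F11r (0.163) was called. Macrophage markers summed to 105 to 130 CPM on NCD and 134 to 185 CPM on HFD (exact permutation p = 0.0286, 0.103 adjusted), with 2 of 17 called, Mertk, a receptor for dying cells (0.90), and Cd14, a receptor for bacterial lipopolysaccharide. Cd14 was at 14.6, 18.9, 20.8 and 16.7 CPM in NCD metformin 1 to 4 and 73.2, 24.8, 32.7 and 42.01 CPM in HFD metformin 1 to 4, with HFD metformin 1 far above the other 3 (log2 fold change 1.27 ± 0.30 (SE), adjusted p = 0.0403). The median of the macrophage list was -0.04, with 7 members positive and 10 negative. Its summed level includes Cd14, and the sum without Cd14 was not tested. Of 17 endothelial markers Kdr, the main VEGF receptor gene, was called lower, at 23.4, 30.7, 35.6 and 15.7 CPM in NCD metformin 1 to 4 and 17.3, 14.7, 12.9 and 14.7 CPM in HFD metformin 1 to 4, which overlap (log2 fold change -0.82 ± 0.21 (SE), adjusted p = 0.0475), and 13 were negative (median -0.22). Of 19 adipocyte markers Adig was called lower (log2 fold change -0.74 ± 0.18 (SE), adjusted p = 0.0448), and 14 were negative (-0.50), with sums of 911 to 1715 CPM on NCD and 750 to 1451 CPM on HFD. Adipoq, the adiponectin gene, overlapped at 17.8, 46.9, 42.02 and 43.98 CPM in NCD metformin 1 to 4 and 40.7, 37.6, 9.84 and 14.7 CPM in HFD metformin 1 to 4 (adjusted p = 0.702). Of myoepithelial (11 tested), fibroblast (12) and skeletal muscle markers (17) 0 were called by edgeR or DESeq2, with 1, 0 and 0 at an unadjusted p under 0.05. The muscle median of 1.55 became -1.17 without HFD metformin 1 and 3.23 without NCD metformin 2. Of 10 listed T cell and 10 neutrophil markers only 2 each were tested. T cell markers summed to 0.534 to 0.915 CPM on NCD and 0.418 to 0.492 CPM on HFD, and 8 members of each list did not pass the filter on low counts. Of 12 tested B and plasma cell markers Xbp1 and Derl3 were called, as above, and their sums ran from 540 to 2317 CPM on NCD and 547 to 2809 CPM on HFD, mostly from immunoglobulin genes, which can share reads. By edgeR 0 of 24 interferon genes (median -0.15), 0 of 18 of antigen presentation (-0.03), 0 of 27 of collagens and matrix (-0.08) and 0 of 26 of lysosomes (0.09) passed, with 2, 0, 3 and 2 at an unadjusted p under 0.05 and 1, 0, 2 and 0 called by DESeq2. Involution genes, which mark the end of lactation, had 3 of 27 called (Pik3r1 and Cd14 higher, C3 lower) and a median of 0.09, with Stat3 at 0.50 (0.11).

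The diet effect without metformin gave 8 called genes (0.064%) in the same fit, with 881 at an unadjusted p under 0.05. Both contrasts use separate libraries. Called in both, each with the same sign, were 5 genes, among them Cyp1a1 (-4.82 with metformin and -5.74 without), Prol1 (-3.26 and -5.04), Adig (-0.74 and -1.25) and Scnn1b (0.49 and 0.66). The other 3 called without metformin were Renbp, Ddah1 and Mpzl2. Under metformin Renbp had -0.10 (adjusted p = 0.803), at 20.5, 24.8, 24.2 and 22.9 CPM in NCD metformin 1 to 4 and 27, 24.9, 15.5 and 18.9 CPM in HFD metformin 1 to 4, against -1.08 without it. Ddah1 had 1.12 (0.0891) against 2.04, and Mpzl2 -0.35 (0.321) against -1.10. Several genes called under metformin and not called without it had values near 0 without it, among them Trp53inp1 (-0.08), Nrip1 (0.04), Cdkn1a (-0.00), Eda2r (0.06), Grb7 (0.20) and Lss (0.06). The difference itself was tested as the diet by metformin interaction. No gene of 12506 passed (0.0%), with 1243 at an unadjusted p under 0.05 and a lowest adjusted p of 0.18 by edgeR, while DESeq2 called 22. By edgeR no gene was thus shown to differ in its diet effect with and without metformin. The lowest unadjusted interaction p among the genes named were 1.77e-05 for Mgea5 (difference 1.10), 2.88e-05 for Eda2r (2.23) and 0.000211 for Slc25a20 (1.14). These genes were named because they were called under metformin, and that contrast is part of the interaction. Such a choice favours low interaction p, so these values add no support for a difference.

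**Figure D5:**
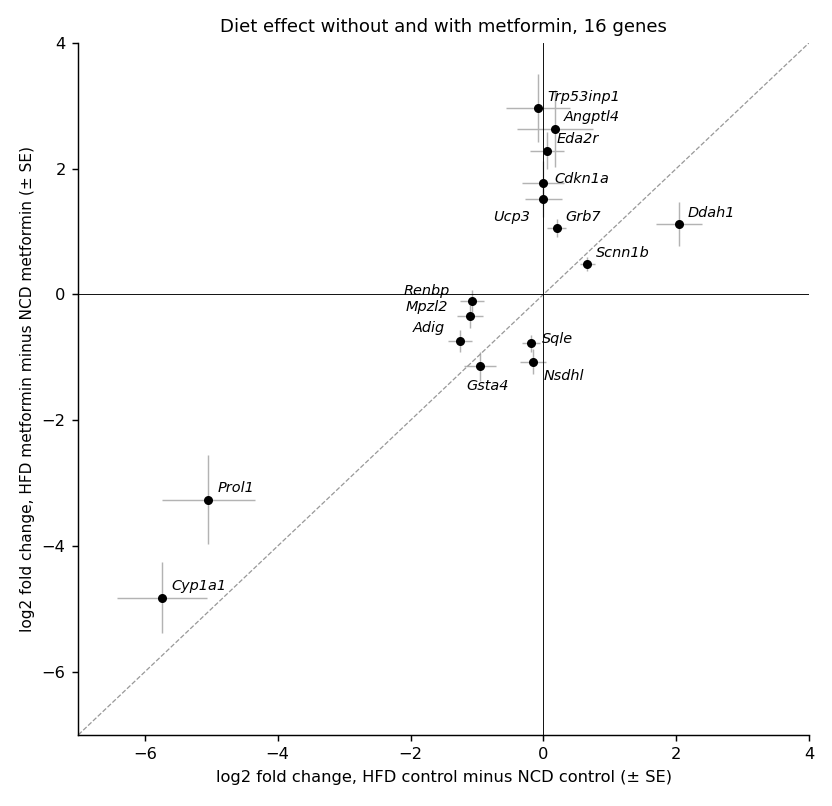
Points give the log2 fold change of HFD against NCD for 16 genes, without metformin on the horizontal axis and with metformin on the vertical axis, with SE bars, and the dashed line marks equal values. Cyp1a1 and Prol1 lie low on both axes, while Trp53inp1, Angptl4, Eda2r, Cdkn1a and Ucp3 lie high on the vertical axis and near 0 on the horizontal one.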

How the data were processed

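Per the labels' protocols, the RNeasy Mini Kit (Qiagen) was used on whole-gland RNA, followed by NEBNext Ultra II Directional library preparation. The deposited files list, per the file headers, for each transcript its TPM and its estimated count, in the format of Salmon. The authors' TPM is relative to effective length. Salmon 1.3.0, DESeq2 1.28.1 and GRCm38.p6 are named, with no role given, per the submitters' processing notes. No label gives strand options or read filters, so overlapping antisense genes cannot be told apart. For 56929 of 56929 transcripts found at the same version in GENCODE M21 the length in the files equalled the coding length to within 5 bases, so untranslated regions are not measured.

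Estimated counts were added up over the transcripts of each of 22196 GENCODE M21 genes, then rounded, and 752 of 58204 transcripts (0.165 to 0.218% of counts) had no match and were left out. The lowest chi-square per degree of freedom between any of 120 pairs of libraries was 13.4, so none was counted as a repeat. The main test was that of edgeR 4.0.16 under R 4.3.3, with 4 group means over 16 libraries, after filterByExpr and TMM scaling, with 12 residual degrees of freedom. Tests were two-sided. The code was tested on simulated data. Intervals and floors cover counting error only. Counts rebuilt from TPM, DESeq2 1.42.0, limma 3.58.1, other scalings and filters, a term for the title number (10 or lower, 14 or higher) and single libraries left out were alternatives.

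The members, lists and rules were chosen with earlier results of these data known. Of called genes at 1 CPM or more with no clone name, the 12 highest and the 12 lowest by log2 fold change are named, with up to 4 members of each list with the lowest p-values, 13 genes in any case, and the genes called without metformin. Further called genes were chosen after their values were seen, as were Grb7, Erbb3, Lifr, Glul and Mgea5. Some genes that these rules name are not reported here.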

Additional observations from a re-analysis of the deposited data

Results flagged for a closer look

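In a group of 4 libraries, a value was singled out where it stood apart from the other 3 by more of the group's range than Dixon's test allows at the 95% level. Of 302 groups examined, over the genes named here and the summed measures, 20 held such a library, where chance would give about 15.1 (1 in 20). HFD metformin 1 stood above the rest of its group for Glul (464 CPM), Jak1 (137 CPM), Kdm5a (10.8 CPM), Kdm5b (24.5 CPM), Pik3r1 (112 CPM), Prol1 (3.85 CPM), Stat5b (71.6 CPM) and Tiparp (15 CPM). NCD metformin 3 stood above its group for Hyou1 (38.4 CPM), Klf6 (26.2 CPM) and Prag1 (30.8 CPM). The other genes were Gsdma (0.313 CPM) in HFD metformin 3, Fdps (50.1 CPM) in HFD metformin 4, Smc4 (22.1 CPM) in HFD metformin 4, Adipoq (17.8 CPM) in NCD metformin 1, Birc3 (14.5 CPM) in NCD metformin 2 and Hoxd4 (1.06 CPM) in NCD metformin 4. The summed level of skeletal muscle markers stood out at 161 CPM in HFD metformin 1 and 35 CPM in NCD metformin 2, and that of myoepithelial markers at 483 CPM in NCD metformin 4.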

How the results depend on the processing

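No paired analysis was possible because the labels give no replicate numbers that groups share. Under metformin 91 genes were called with the 8 metformin libraries fitted alone (68 of the 295 among them), 769 with DESeq2, 641 scaled by library size only, 2 in counts rebuilt from TPM (Cyp1a1 and Eda2r), 6 in libraries of title number 14 or higher, and 3 to 384 without 1 library. The cause of each was not tested, beside the fewer libraries in some. Without metformin the 8 calls became 65 with DESeq2, 39 scaled by library size only, 5 with a term for the title number, 1 at title numbers of 14 or higher, and 2 to 13 without 1 library. The interaction had 22 calls with DESeq2 and 0 to 1 without 1 library. TMMwsp scaling, upper quartile scaling, no low count filter, a filter of 1 CPM, limma-voom, the milk protein genes left out, the title number term and the coding length trend left the count under metformin between 200 and 373. Hoxd3 was 0.38 in counts rebuilt from TPM, against -1.30, the 1 sign change among the 295 genes in any alternative that fitted them. Depth limits genes under about 0.2 CPM, the floor of HFD metformin 1.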

Other observations

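Some called genes outside the lists are named here after their values were seen. They were picked because they were called, and genes of like function that were not called were not counted, so nothing is shown of a group. Of genes known from death receptor and NF-kappaB signalling, those called higher included Apaf1, the core of the apoptosome (1.05), Cflar, a brake on death receptors (1.05), Birc3, a ubiquitin ligase of this pathway (0.63), Tlr4, the lipopolysaccharide receptor that works with CD14 (0.71), Nfkbia, the inhibitor of NF-kappaB (0.72), Cyld, a deubiquitinase (0.65), and the kinase genes Map3k1 (0.71) and Jak1 (0.81). Apaf1 was at 1.296, 0.969, 1.09 and 1.57 CPM in NCD metformin 1 to 4 and 3.31, 2.25, 2.68 and 2.14 CPM in HFD metformin 1 to 4, without overlap. The call of Cflar ended in 22 of 29 alternatives, that of Tlr4 in 20, and those of the other 6 in 8 to 13. Scaled by library size only, none of these genes was called (adjusted p from 0.0545 for Jak1 to 0.0969 for Birc3, edgeR). Of genes of chromatin proteins, those called higher included the histone demethylases Kdm3a (1.24), Kdm5a (0.70), Kdm5b (0.74), Kdm6a (0.66) and Jmjd1c (0.97), the methyltransferase Kmt2c (1.06), Tet2, which oxidises methylated DNA (1.38), Asxl1 (0.52) and Arid2 (0.71). Kdm5b was at 12.96, 10.97, 11.2 and 15.95 CPM in NCD metformin 1 to 4 and 24.5, 20.3, 20.7 and 20.4 CPM in HFD metformin 1 to 4, without overlap (adjusted p = 0.0265, edgeR). Under scaling by library size only, the calls of Tet2 (adjusted p = 0.0525), Kdm5a (0.0738), Kdm6a (0.0887), Asxl1 (0.122) and Arid2 (0.104) ended (edgeR). Those of Kdm3a, Kdm5b, Jmjd1c and Kmt2c held. With the trend on coding length removed, the calls of Kdm5a (adjusted p = 0.12), Kdm6a (0.0731), Asxl1 (0.131) and Arid2 (0.0598) ended, as did those of Cflar (0.0512), Tlr4 (0.0652), Cyld (0.0521) and Map3k1 (0.0853).

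The Hoxd genes encode body-axis factors and stand side by side on chromosome 2. The cluster was looked at because members were called, so its count of calls adds no support for a change of the cluster. Of 5 tested, Hoxd8 (-0.85), Hoxd9 (-0.91) and Hoxd3 (-1.30) were called lower, where 0.504% of all genes were. Hoxd10 (-0.76, adjusted p = 0.262) and Hoxd4 (-0.51, 0.371) did not pass (edgeR). These calls ended in 16 (Hoxd8) and 18 (Hoxd9) of 29 and in 19 of 28 (Hoxd3) alternatives, with limma-voom, no low count filter, the metformin libraries alone and the coding length trend removed among them for each. Hoxd9 was at 7.17, 6.59, 6.04 and 4.15 CPM in NCD metformin 1 to 4 and 3.62, 3.698, 3.27 and 2.18 CPM in HFD metformin 1 to 4, with no overlap. Hoxd3 and Hoxd4 overlap in the annotation, and Hoxd3 was 0.38 in counts rebuilt from TPM. Without metformin the 3 called genes had -0.05, -0.04 and -0.03. The mast cell protease gene Mcpt4, at 2.402, 1.14, 0.878 and 1.15 CPM in NCD metformin 1 to 4 and 0.538, 0.4502, 0.268 and 0.109 CPM in HFD metformin 1 to 4, was also lower (log2 fold change -2.07 ± 0.42 (SE), adjusted p = 0.0322).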
